A study of Mus musculus with 4 samples.

Results

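General pluripotency genes, which serve both the naive and the primed state, and the Lin28 genes were followed through the ES–ELA transition and through its treatment with 2 inhibitors of chromatin enzymes. The 10 genes were Pou5f1, Sox2, Sall4, Utf1, Foxd3, Zfp281, Rif1, Lin28a, Lin28b and Trim71. The members were chosen by name, not by level, as every array probe that carries 1 of these gene names, which gave 14 probes for 10 of the 36039 named genes with a usable probe. RNA of mouse E14Tg2A embryonic stem (ES) cells, a line of strain 129/Ola, had been measured on 4 single-colour Agilent arrays of 60-base probes. The line is known to lack part of Hprt, a deletion that all groups share, and the labels name no further genetic change. The ES array held cells at day 0, grown in LIF and serum. The ELA array held epiblast-like aggregates, the primed state formed over 2 days of floating culture in a chemically defined minimal medium. The AZA array held aggregates that formed over the same 2 days with 50 nM 5-azacytidine, an inhibitor of DNA methyltransferases, and the CHQ array held aggregates formed with 100 µM 5-carboxy-8-hydroxyquinoline, an inhibitor of histone lysine demethylases.

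Each group was 1 array, hybridised with a pool of RNA from 3 experiments. There was thus no replicate array, no test between groups was possible, and differences are described by their size. ES and ELA lay on 1 slide, AZA and CHQ on another. In each comparison of a treated with an untreated array, slide and treatment cannot be told apart, whereas ELA against ES and CHQ against AZA were read within a slide. The number of arrays limits the precision. The only error that could be measured was that of repeated spots of 1 probe within an array, with a pooled SD between 0.137 and 0.159 (log2; 262 to 273 probes per array). Such a spread holds the error of printing and scanning and leaves out any variation between cultures. The levels are from mixed cell populations, in which fewer cells that express a gene and less RNA per cell cannot be told apart.

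Oct4, the product of Pou5f1, and Sox2 bind DNA together and sit at the centre of the network that keeps cells pluripotent, and Sall4, Utf1, Foxd3, Zfp281 and Rif1 act around them as transcription factors, chromatin proteins or genome caretakers. Lin28a and Lin28b are RNA-binding proteins that block the maturation of the let-7 microRNAs, which otherwise rise as cells differentiate and repress growth and stem cell genes. Trim71, itself a let-7 target, is an RNA-binding ubiquitin ligase that represses messenger RNAs, and its worm counterpart lin-41 acts in the same pathway as lin-28.

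The let-7 family is shown first, because it is the common target of the Lin28 proteins. It was not measured here. RefSeq (GRCm38.p6) lists 11 mature mouse forms of the let-7 family, miR-98 included, of which 10 share the seed at bases 2 to 8 and 1, let-7j, differs from them in its seed. In the sequences that follow the seed is in capitals.

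mmu-let-7a-5p: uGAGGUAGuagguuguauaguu
mmu-let-7g-5p: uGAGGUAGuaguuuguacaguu
mmu-miR-98-5p: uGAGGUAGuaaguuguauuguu
mmu-let-7j: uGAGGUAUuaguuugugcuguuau

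Lin28 proteins recognise the letters GGAG in the loop of let-7 hairpins. Of the 13 hairpins that give these mature forms, 9 hold GGAG outside the listed mature strands, as do 23.7% of the 1005 mouse hairpins in the table. The hairpin of let-7g is given with those letters in capitals.

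Mirlet7g hairpin: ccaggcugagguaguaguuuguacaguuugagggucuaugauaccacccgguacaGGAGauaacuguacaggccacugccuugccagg

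The core factors were read first, to ask how far pluripotency genes that both states share differ between ES and ELA and with treatment. For Pou5f1 (NM_013633; probe on chromosome 17, 35647280 to 35647340, mouse build mm9) the level was 14.95 in ES, 14.46 in ELA, 14.05 in AZA and 13.56 in CHQ (normalised log2 intensity, the scale of all levels given here). ES was the highest array and both treated arrays lay under both untreated ones. The difference was -0.49 for ELA against ES, -0.41 for AZA against ELA and -0.89 for CHQ against ELA. CHQ lay 1.38 below ES, a 2.61-fold lower level. This last difference grew to -1.85 with 75th percentile scaling and to -2.53 with spike-in scaling. Sox2 (NM_011443; chromosome 3, 34550773 to 34550832) stood at 13.43 in ES, 12.77 in ELA, 13.76 in AZA and 13.41 in CHQ. Here ELA was the lowest array, and the treated arrays lay within 0.33 of ES, an order that turned with spike-in scaling, where they lay below ES (-0.54 in AZA and -1.07 in CHQ). Sox2 was 0.66 lower in ELA than in ES, 0.99 higher in AZA than in ELA and 0.64 higher in CHQ than in ELA, none of them reaching the size of 1 that a call required. With spike-in scaling the difference between ELA and ES grew to -1.40 and was called. The partner genes Pou5f1 and Sox2 thus lay on opposite sides of ELA in both treated arrays, although the Pou5f1 value in AZA was within the reading error of 0.42 (2 SD of repeated spots of both arrays). Under each of 8 other ways of processing the arrays, Pou5f1 stayed below ELA in both treated arrays and Sox2 stayed above it, between 0.86 and 0.99 in AZA and between 0.32 and 0.64 in CHQ.

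Foxd3, a forkhead repressor needed for the early epiblast (NM_010425; chromosome 4, 99325170 to 99325229), followed the order of Pou5f1. Its level was 12.27 in ES, 12.23 in ELA, 11.62 in AZA and 11.21 in CHQ. ES and ELA did not differ beyond the reading error, AZA lay 0.60 under ELA, and CHQ lay 1.02 under ELA, just past the size of 1 for a call. Utf1, a chromatin-associated factor of undifferentiated cells (NM_009482; chromosome 7, 147130950 to 147131009), was at 16.11 in ES, 16.22 in ELA, 16.50 in AZA and 16.09 in CHQ. All of its differences from ELA were within the reading error, but they depended on the scaling. The AZA level lay below ELA with 75th percentile scaling (-0.11) and with spike-in scaling (-0.18), and the CHQ level then lay below ELA by more than the reading error (-0.70 and -0.87). Zfp281, a zinc finger factor tied to the exit from the naive state (NM_177643; chromosome 1, 138524591 to 138524650), was the most even member, at 14.05 in ES, 14.06 in ELA, 13.99 in AZA and 13.87 in CHQ. Its CHQ level lay further below ELA with 75th percentile (-0.44) and spike-in scaling (-0.60). With spike-in scaling Rif1 was the more even (CHQ against ES at -1.25, beside -1.30 for Zfp281). Rif1, which protects broken DNA ends and times replication (NM_175238; chromosome 2, 51977508 to 51977567), stood at 13.75 in ES, 13.33 in ELA, 13.73 in AZA and 13.57 in CHQ. It was lowest in ELA, as Sox2 was, by 0.42 against ES and 0.40 against AZA, both within the reading error of 0.44 and 0.42, and with spike-in scaling CHQ lay below ELA (-0.10).

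Sall4, a zinc finger factor that binds Oct4 and Nanog (NM_175303), was read by 3 probes. At the brightest (chromosome 2, 168574333 to 168574392) the level was 13.64 in ES, 13.97 in ELA, 12.81 in AZA and 12.22 in CHQ. Both treated arrays lay under both untreated ones, by 1.16 for AZA against ELA and by 1.75 for CHQ against ELA, a 2.24-fold and a 3.36-fold lower level. A second probe (chromosome 2, 168580437 to 168580496) read 9.37 in ES, 9.42 in ELA, 7.70 in AZA and 7.45 in CHQ, and so gave larger differences of -1.72 and -1.98. The remaining probe (chromosome 2, 168578172 to 168578231) read 10.45 in ES, 10.63 in ELA and 9.45 in AZA, which is 1.18 lower in AZA than in ELA. Its spot on the CHQ array was marked as uneven by the scanner software and read 13.04, against the direction of both other probes, and this probe was left out of the calls. The sequences of the second and the remaining probe are shown because both read Sall4 lower in AZA on the same arrays, while in CHQ this holds for the second probe alone.

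Sall4 A_55_P2173546: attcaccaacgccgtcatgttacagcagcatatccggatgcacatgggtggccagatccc
Sall4 A_51_P145260: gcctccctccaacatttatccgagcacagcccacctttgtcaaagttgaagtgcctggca

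**Figure D1:**
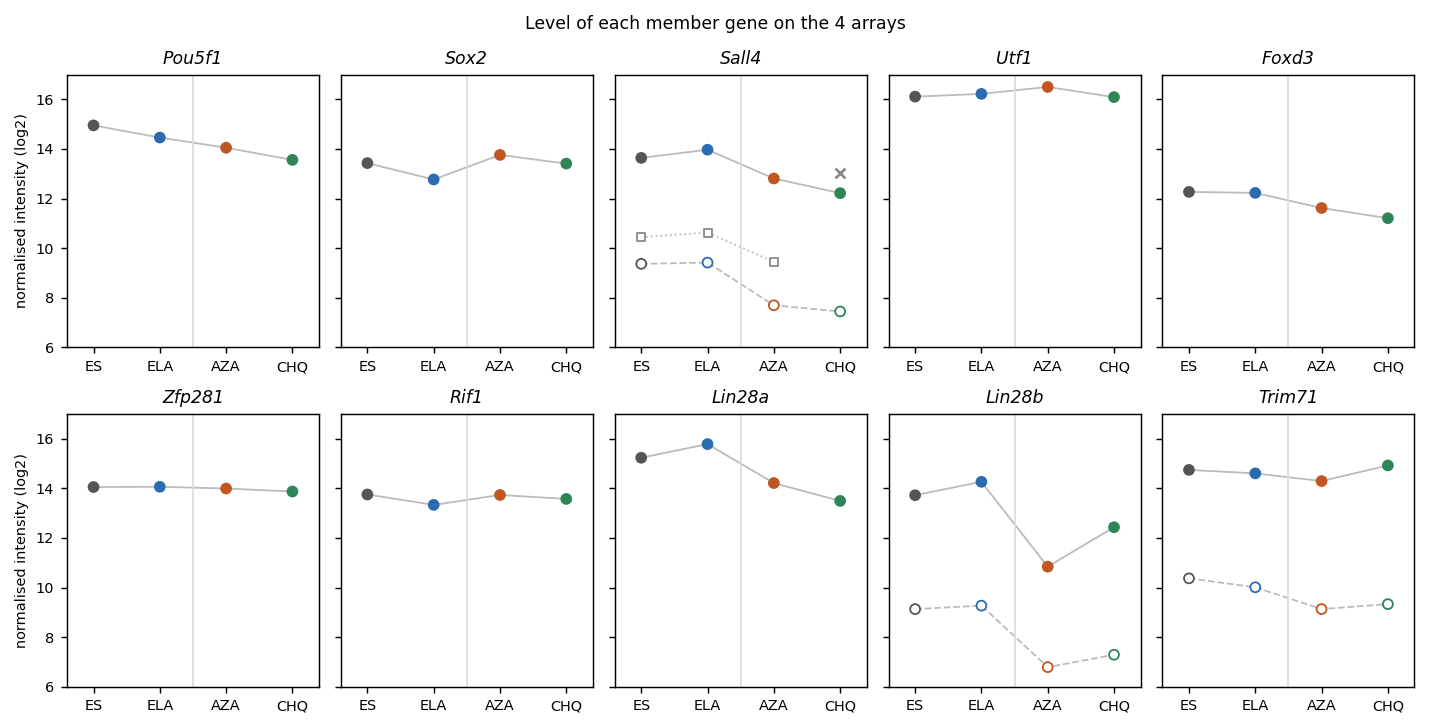
Normalised log2 intensity (vertical axis) of the 10 genes on the ES, ELA, AZA and CHQ arrays, 1 value per array, with filled circles for the brightest probe, open circles for a second probe, open squares for the remaining Sall4 probe and a cross for its uneven CHQ spot; the grey vertical line parts the 2 slides, and heights are not comparable between probes. Lin28a, Lin28b, Sall4, Pou5f1 and Foxd3 are lower on both treated arrays than on both untreated ones, whereas Sox2 and Rif1 are lowest in ELA (with spike-in scaling, Rif1 is lowest in CHQ).

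The Lin28 genes had the largest range over the 4 arrays and, at the brightest probe, the largest differences from ELA in both treated arrays. Lin28a (listed under its older name Lin28, NM_145833; chromosome 4, 133559245 to 133559304) was at 15.23 in ES, 15.78 in ELA, 14.21 in AZA and 13.49 in CHQ. ELA was its highest array (with spike-in scaling, ES), and the treated arrays lay under both controls. Lin28a was 1.57 lower in AZA than in ELA (2.98-fold) and 2.29 lower in CHQ than in ELA (4.91-fold). It was also 1.02 and 1.74 lower than in ES (-2.02 and -2.89 with spike-in scaling). Lin28b (NM_001031772; chromosome 10, 45096468 to 45096527) was at 13.72 in ES, 14.26 in ELA, 10.84 in AZA and 12.43 in CHQ. Its AZA level lay 3.42 under ELA, a 10.73-fold difference, and only 38 of the 19159 genes that could be called had a lower difference in that comparison. The CHQ level lay 1.83 under ELA, a 3.54-fold difference. A second Lin28b probe (chromosome 10, 45140412 to 45140471) read 9.13 in ES, 9.27 in ELA, 6.79 in AZA and 7.29 in CHQ, well above background on all 4 arrays. It gave -2.48 for AZA and -1.98 for CHQ against ELA, in the same direction as the first probe. Its spots were dim on the treated arrays (mean signal 62.1 in AZA and 112.9 in CHQ, local background 12). The processing added an offset of 50 to each signal, which shrinks differences at such low signals. The smaller value for AZA therefore does not show that the probes disagree in size. The sequence of this second probe is shown as the second, separate reading of the largest difference among the 10 genes.

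Lin28b A_52_P532355: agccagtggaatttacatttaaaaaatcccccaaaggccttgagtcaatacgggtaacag

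The 2 Lin28 genes were ordered differently by the treatments. Within the slide of the treated arrays, Lin28a was 0.72 lower in CHQ than in AZA, and Lin28b was 1.60 higher in CHQ than in AZA at its first probe and 0.50 higher at its second. The Lin28b difference at the second probe was little more than the reading error of 0.41. It was also read from dim spots, where the added offset shrinks differences. Its size is therefore uncertain, while its direction was shared by both probes. Trim71 gave no common reading in CHQ. In AZA both Trim71 probes lay below ELA, by -0.31 at the first, within the reading error, and -0.87 at the second. Its brightest probe (NM_001042503; chromosome 9, 114420415 to 114420474) was at 14.74 in ES, 14.60 in ELA, 14.29 in AZA and 14.92 in CHQ, whereas a second probe (chromosome 9, 114421669 to 114421728) was at 10.37 in ES, 10.01 in ELA, 9.13 in AZA and 9.33 in CHQ. Against ELA, CHQ was at 0.32 at the first and at -0.67 at the second. Trim71 in CHQ therefore has no settled direction, and neither probe reached a difference of 1 from ELA in either treated array. Against ES, the second probe gave -1.24 in AZA and -1.04 in CHQ, where the first gave -0.45 and 0.18.

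The counts follow the individual values. A gene was called when 2 arrays differed by at least 1 log2 unit, provided that their mean was 7.5 or more and that the scanner software had marked either spot as well above background. All 10 genes could be called in each of the 6 comparisons, and every probe of theirs was well above background on all 4 arrays apart from the uneven Sall4 spot. Between ES and ELA none of the 10 was called (3 with spike-in scaling, Pou5f1, Sox2 and Rif1), against 10.0% of 18947 genes in all (4.45% higher and 5.59% lower in ELA). Their median difference was -0.01, beside -0.02 over all genes, and 5 of the 10 lay on each side of 0. The values spread from -0.66 for Sox2 to 0.55 for Lin28a, with a median absolute size of 0.38 against 0.27 over all genes. Directions in this comparison are relative to the bulk of transcripts. Scaled to 7 spike-in probes, the median of all genes tested moved to -0.59, the median of the 10 genes to -0.71, and all 10 genes lay below 0, since the 5 that had been above it turned, to -0.13 for Lin28a, -0.15 for Lin28b, -0.37 for Sall4, -0.58 for Utf1 and -0.70 for Zfp281. Of all calls in that scaling, 7.52% were higher, beside 44.3% in the values used here.

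In AZA against ELA, 3 of the 10 were called, Sall4, Lin28a and Lin28b, all lower in AZA, against 25.6% of 19159 genes called (14.3% higher, 11.4% lower). In CHQ against ELA, 4 of the 10 were called lower, the same 3 and Foxd3, and none higher, against 26.6% of 19163 genes (14.8% higher, 11.9% lower). Pou5f1 was called lower as well in CHQ against ELA with 75th percentile scaling (-1.20; all genes: 32.7% called) and with spike-in scaling (-1.29; 33.7%). The medians of the 10 were -0.36 and -0.55, beside -0.07 and -0.09 over all genes tested. The share called in either direction, 3 and 4 of 10, was near that of all genes. Both comparisons share the ELA array, so their calls are not separate evidence. Against ES, which both share likewise, AZA was called lower for Lin28a and Lin28b (all genes: 19.5% called, 11.2% higher, 8.28% lower). Sall4, at -0.83 there, was at -1.67 at its second probe and was called with the mean over probes (-1.25), as it was with 75th percentile (-1.16) and spike-in scaling (-1.70). Pou5f1, at -0.90 there, was also called with these scalings (-1.26 and -1.87), where 24.3% and 45.9% of all genes were called. Spike-in scaling further added Foxd3 (-1.37) and Trim71 (-1.44). Against ES, CHQ was called lower for Pou5f1, Sall4, Foxd3, Lin28a and Lin28b (all genes: 23.0%, 12.7% higher, 10.3% lower). Between the treatments, Lin28b was called higher in CHQ (all genes: 10.3%, 5.53% higher, 4.81% lower).

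**Figure D2:**
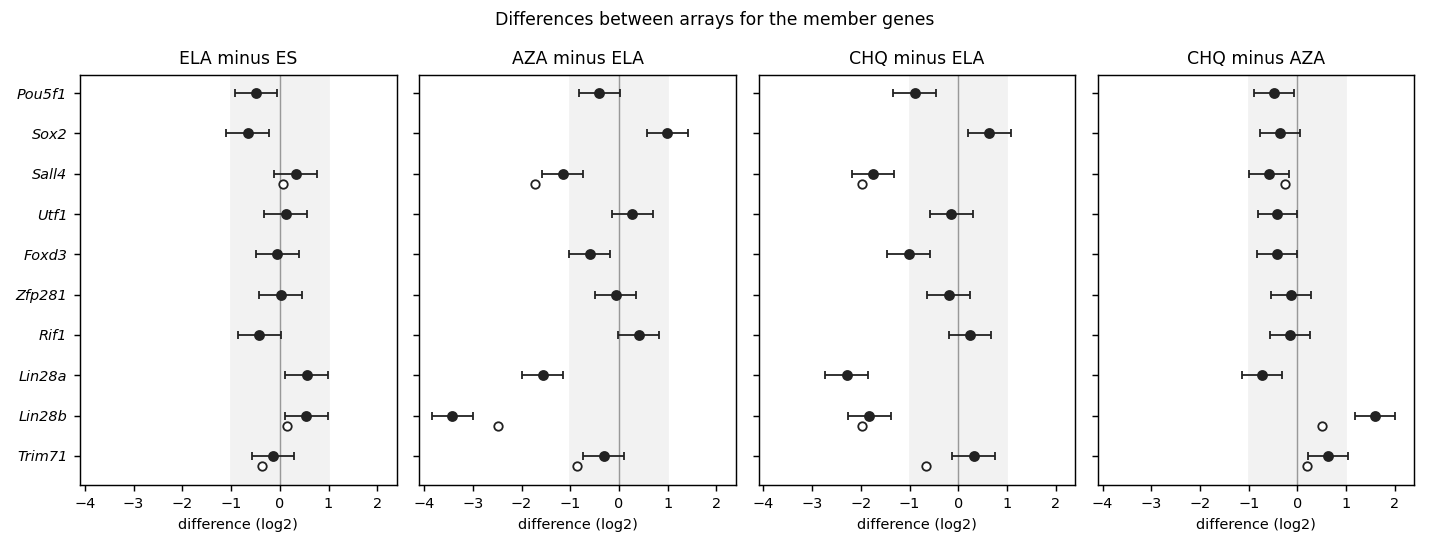
Log2 difference (horizontal axis) of each gene in 4 comparisons of arrays, with filled circles for the brightest probe and open circles for a second probe; bars are 2 SD of repeated spots, a reading error only, and the grey band marks sizes under 1. ELA minus ES stays in the band for all 10 genes, and in both treated arrays Sall4, Lin28a and Lin28b lie to its left.

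Without regard to size, both treated arrays lay below both untreated arrays for 6 of the 10 genes (Pou5f1, Sall4, Foxd3, Zfp281, Lin28a and Lin28b), and for 36.4% of 19158 genes in all. They lay above for none of the 10 and for 27.3% of all genes. Utf1 and Trim71 also lay below on both treated arrays with 75th percentile and with spike-in scaling, and Trim71 with the mean over probes. The share of all genes lying so was not counted under these settings, so this addition is a description only. Both scalings also lowered the median of all genes against ELA. It was -0.2 in AZA and -0.26 in CHQ with the 75th percentile, and -0.26 and -0.39 with spike-ins. Over the 4 arrays, the range of a member had a median of 1.03, beside 0.86 over all genes, from 0.20 for Zfp281 and 0.41 for Utf1 to 2.29 for Lin28a and 3.42 for Lin28b. The treated arrays, which were also those of the second slide, differed from the untreated arrays in a property of the readings. Over 3057 genes with 2 bright probes on 1 strand, the probe nearer the 5′ end gave a difference lower than the probe nearer the 3′ end by a median of 0.16 in AZA against ELA and 0.23 in CHQ against ELA, but by 0.03 within the first slide (ELA against ES) and 0.04 within the second (CHQ against AZA). The second probes of Sall4, Lin28b and Trim71 are the 5′ ones. Their difference from ELA, minus that of the 3′ probe, was -0.56 in AZA and -0.23 in CHQ for Sall4, -0.56 and -0.99 for Trim71, and 0.95 and -0.15 for Lin28b. The 5′ probes of Sall4 (7.70 in AZA and 7.45 in CHQ) and Lin28b (6.79 and 7.29) were dim on the treated arrays, so their values are less certain. The part of this property in the values of the 10 genes was not tested.

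**Figure D3:**
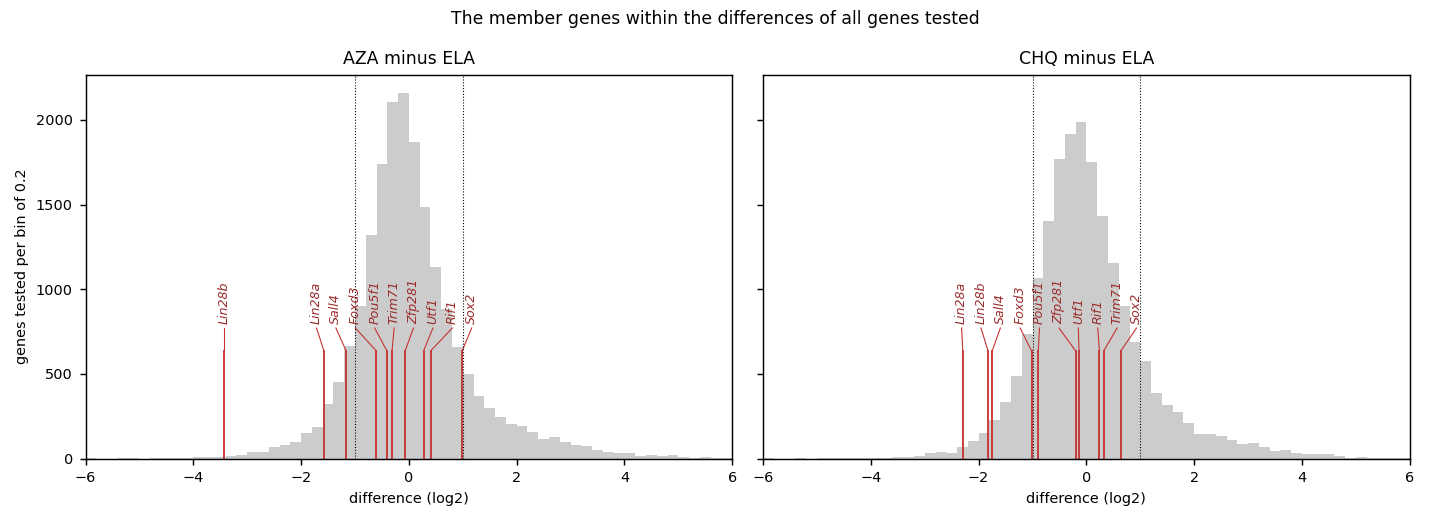
Histogram of the log2 differences of all genes tested (grey, genes per bin of 0.2) for AZA minus ELA and CHQ minus ELA, with the 10 genes as red lines and dotted lines at a size of 1. Lin28b in AZA (-3.42) and Lin28a in CHQ (-2.29) lie far out on the low side, while Sox2 (0.99 and 0.64) is the highest of the 10.

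Promoters of the Lin28 genes, called lower in both treated arrays, were set beside those of the other genes, since AZA acts on the methylation of CG pairs. Methylation was not measured on these arrays. RefSeq (GRCm38.p6) promoters, 250 bases before to 50 after the start, were at hand for 8 of the 10 genes, Pou5f1 with 2 starts. Rif1 and Sall4 had no promoter at hand, so the comparison lacks Sall4, which was also called lower in both treated arrays. Lin28a held 10 CG pairs, Lin28b 8, and the starts of Pou5f1 11 and 6, near the median of 7 over 32841 promoters. Sox2 and Zfp281 held 27 each, Trim71 19 and Utf1 17. Foxd3, which was called lower in CHQ, held 25. The ratio of observed to expected CG was 0.35 for Lin28a, 0.71 for Lin28b, 0.82 for Sox2 and 0.79 for Foxd3, with a median of 0.38 over all promoters. With 8 genes this is a description only. The promoters of Lin28a, Lin28b and Sox2 are shown as the 2 genes with the largest differences and as Sox2, which lay highest above ELA of the 10 in both treated arrays, with CG in capitals, on the strand of the gene.

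Lin28a: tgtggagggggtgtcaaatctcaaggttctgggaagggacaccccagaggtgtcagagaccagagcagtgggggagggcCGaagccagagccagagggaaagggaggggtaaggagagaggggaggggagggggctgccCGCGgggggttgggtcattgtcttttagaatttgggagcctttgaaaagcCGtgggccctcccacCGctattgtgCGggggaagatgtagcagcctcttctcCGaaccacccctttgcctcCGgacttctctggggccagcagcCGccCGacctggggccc
Lin28b: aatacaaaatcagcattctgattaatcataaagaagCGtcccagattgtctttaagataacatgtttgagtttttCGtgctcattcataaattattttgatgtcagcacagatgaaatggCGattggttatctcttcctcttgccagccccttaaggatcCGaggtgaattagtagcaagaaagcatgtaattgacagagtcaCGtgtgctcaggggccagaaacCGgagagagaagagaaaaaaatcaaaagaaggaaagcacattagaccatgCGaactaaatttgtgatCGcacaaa
Sox2: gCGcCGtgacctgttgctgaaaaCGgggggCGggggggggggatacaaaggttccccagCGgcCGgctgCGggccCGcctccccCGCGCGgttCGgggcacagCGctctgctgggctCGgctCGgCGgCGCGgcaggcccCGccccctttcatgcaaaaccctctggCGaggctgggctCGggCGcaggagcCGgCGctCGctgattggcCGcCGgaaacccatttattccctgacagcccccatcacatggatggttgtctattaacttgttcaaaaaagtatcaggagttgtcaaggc

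They lie at chr4:134018767-134019066 on the minus strand for Lin28a, chr10:45470152-45470451 on the minus strand for Lin28b and chr3:34649745-34650044 on the plus strand for Sox2, all in GRCm38.p6. The letters bound by Oct4 and Sox proteins were searched on both strands. The octamer letters ATGCAAA were found in the Sox2 window, 99 bases before the start, and in no other of the 9 windows, while 4.63% of all promoters hold them. The Sox letters ACAATG were found in the Lin28a window, 96 bases before the start, and in the second Pou5f1 window, and in 12.6% of all promoters. The Sox letters ACAAAG were found in the Sox2 window alone, and in 18.7% of all promoters. A match is a description of these letters only.

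Genes that act with Lin28 on let-7 were counted next, and the counts of all lists are read beside the shares of all genes, 14.3% higher and 11.4% lower in AZA against ELA and 14.8% and 11.9% in CHQ against ELA. The lists were chosen with earlier results of these data known, so a count above these shares is a description only. Of 10 factors that mature or degrade let-7, AZA against ELA had 0 called higher and 1 lower, and CHQ against ELA had 3 called higher and 1 lower. Prkra, a partner of Dicer, was the gene lower in both, at -1.85 in AZA and -1.66 in CHQ, and it was 1.30 higher in ELA than in ES. The terminal uridylyl transferases that Lin28 proteins recruit to let-7 were higher in CHQ than in ELA, by 1.06 for Tut4 and 1.41 for Tut7, and Tarbp2, which also binds Dicer, by 1.06. The other Tut4 probe gave 0.82, and its call is lost with the mean over probes, which leaves 3 of the 4 calls in this list. In AZA the uridylyl transferases were 0.65 and 0.61 above ELA, under the size for a call. Dis3l2, the exonuclease that removes uridylated let-7, was at -0.39 in AZA and 0.35 in CHQ, with a second probe at -1.01 and -0.42. The medians of the 10 were 0.03 and 0.21, beside -0.07 and -0.09 over all genes.

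Of 21 genes known as let-7 targets, 20 could be called. In AZA against ELA 0 were called higher and 4 lower, with a median of -0.25, among them Irs2 (-1.81) and Igf1r (-1.46) of insulin and IGF signalling. In CHQ against ELA 1 was called higher, Mycn (1.02), and 2 lower, among them Arid3a (-1.34), with a median of -0.22. The let-7 targets used most often as readouts, Hmga2 and Igf2bp1, were not called, at 0.78 and 0.23 in AZA and at 0.53 and -0.24 in CHQ, while the other Hmga2 probe gave -0.02 and -0.04. Hmga1, a relative of Hmga2, was at -0.26 in AZA and -0.21 in CHQ at its brightest probe, but its other probes gave -2.62 to -1.04 and -2.78 to -0.85. With the mean over probes Hmga1 was called lower as well in both, which gives 5 calls in AZA and 4 in CHQ. Between ES and ELA, Igf2bp2 was 1.47 higher in ELA, and Myc and Mycn were lower (-1.54 and -1.06). In CHQ against AZA, 2 of the 20 were called higher, Irs2 (1.60) and Igf1r (1.22), and none lower, beside 5.53% higher and 4.81% lower of all genes, with a median of 0.05.

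Of 6 genes known as targets of repression by Trim71, 2 of 5 that could be called were higher in AZA than in ELA and 4 of 6 were higher in CHQ than in ELA, and none was lower, beside 14.3% and 14.8% of all genes called higher. With 6 genes this is a description only. Among them were Rbl2, a member of the retinoblastoma family, at 2.62 in AZA and 2.39 in CHQ, and Cdkn1a, which encodes the cell cycle inhibitor p21, at 1.82 and 1.5. Egr1, an immediate early factor, was 1.13 higher in CHQ. The other probes of Cdkn1a gave 0.80 to 0.94 in AZA and 0.05 to 1.31 in CHQ, and its call in CHQ is lost with the mean over probes, which leaves 3 of the 4. Ago2, a core protein of microRNA silencing, was at 0.36 in AZA and 0.04 in CHQ with its other probe at -0.37 and -1.39, and Rbl1, another member of the retinoblastoma family, at 0.61 and 0.80 with its other probe at 0.40 and -0.42. Trim71 itself was not called in these comparisons.

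Paralogues of the 10 genes were read in the same way. Sox3, a SoxB1 relative of Sox2, was at 11.82 in ES, 14.55 in ELA, 11.11 in AZA and 12.42 in CHQ, so that it was highest in ELA where Sox2 was lowest. Sox15 was lowest in ELA, as Sox2 was, at 9.66 in ES, 7.67 in ELA, 10.71 in AZA and 10.39 in CHQ. Sall2 was 1.66 higher in ELA than in ES and lower in both treated arrays than in ELA (-2.38 in AZA and -1.39 in CHQ). Sall1 was 0.89 higher in ELA than in ES and stayed within 0.05 of ELA in both treated arrays, and Sall3 was at 0.94 in AZA and 0.40 in CHQ against ELA. Zfp148, a relative of Zfp281, was at 0.42 and 0.39 at its brightest probe and at -0.77 and -0.64 at its other. Of 15 paralogues, 13 could be called in AZA against ELA, 1 of them higher and 4 lower, and 12 in CHQ against ELA, 1 higher and 3 lower, among them Trim2, a relative of Trim71, at -1.94 in CHQ.

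Of 21 partner proteins of the 10 genes found on the array, 9 were called higher and 2 lower in AZA against ELA, and 8 higher and 1 lower in CHQ against ELA, beside 14.3% higher and 11.4% lower of all genes in AZA and 14.8% and 11.9% in CHQ. The median was 0.52 in AZA and 0.01 in CHQ. The list was drawn up by name, and binding of its genes' products to those of the 10 genes, Zscan4c included, was not examined. Nr0b1, a nuclear receptor that binds Oct4, was 4.46 and 3.35 higher, Esrrb, an orphan nuclear receptor, 3.90 and 1.89, Tet2, a 5-methylcytosine dioxygenase, 2.63 and 2.50, and Zscan4c, a factor of the 2-cell stage, 3.53 and 3.69. Between ES and ELA, 1 was called higher and 7 lower in ELA, led by Nr0b1 (-3.90), Tet2 (-3.02) and Esrrb (-2.85), beside 4.45% higher and 5.59% lower of all genes. Nanog was 2.86 higher in AZA than in ELA and 0.01 in CHQ, but its other probe gave -1.55 and -1.01, so that its direction depends on the probe. With the mean over probes the calls of Nanog and Tet1 in AZA were lost and Mbd3 was called, which gives 10 calls in place of 11.

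**Figure D4:**
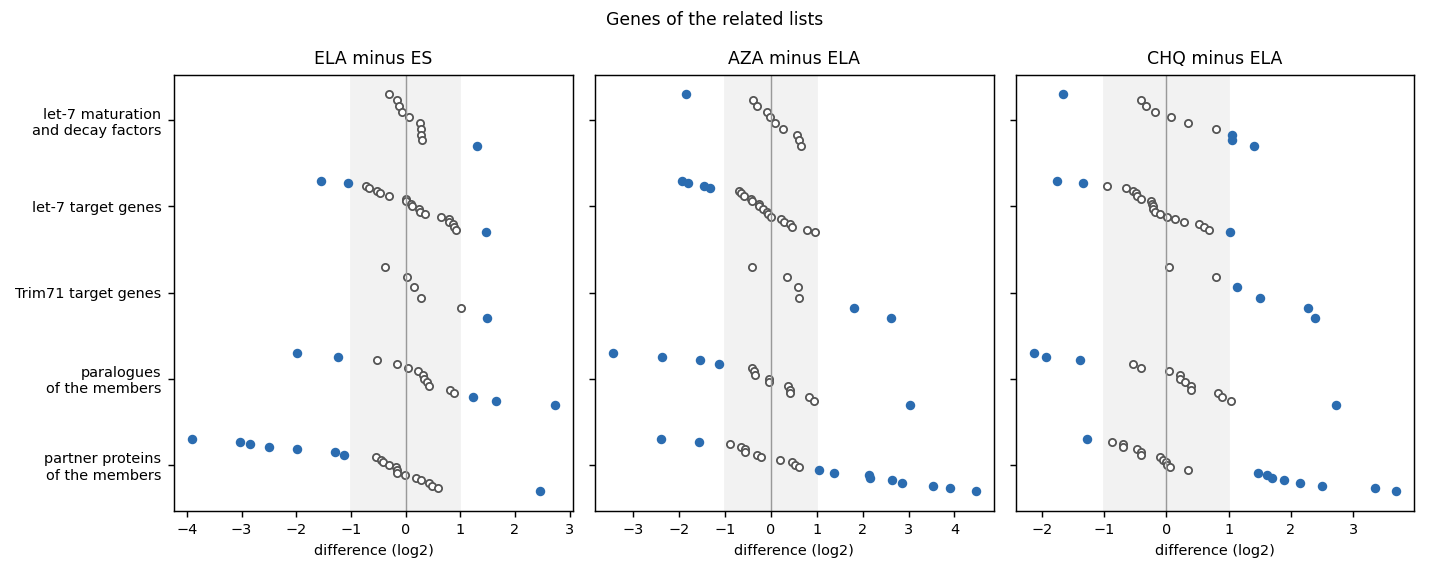
Log2 difference (horizontal axis) of the genes of 5 lists tied to the 10 genes, 1 point per gene, filled where called; the grey band marks sizes under 1. Of the partner proteins 7 are called lower in ELA than in ES, and 9 and 8 are called higher in AZA and CHQ than in ELA, while of the Trim71 targets 2 and 4 are called higher.

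Markers of the cell states and of other cell types the cultures could hold were read beside these values. Of 8 naive markers, 8 were called higher in AZA than in ELA and 7 in CHQ, with medians of 4.07 and 2.96, and the call in AZA of 1 of them, Nanog, is against its other probe. Of 7 formative and primed markers, 5 were called lower in AZA and 4 in CHQ, and 1 was called higher in both, Wnt8a (2.00 and 1.37). The lists overlap. Nanog, Esrrb and Nr0b1 were also counted among the partner proteins, and Sox3, Pou3f1 and Sox1 among the paralogues, so these counts are not separate readings. Fgf5, the primed epiblast growth factor, was at 11.61 in ES, 14.47 in ELA, 11.94 in AZA and 13.33 in CHQ. Pou5f1, Sall4, Foxd3 and Lin28a were lowest in CHQ, while the naive markers lay higher in AZA than in CHQ, with a median of -1.42 for CHQ against AZA. Primitive endoderm markers were well above background for 3 of 6 genes in ES, 2 in ELA, 6 in AZA and 5 in CHQ. Of all gene spots, 60.6%, 55.1%, 69.1% and 69.2% were so in the same order, with a lower local background on the second slide. Counts of dim markers are therefore not comparable between the slides. The summed level of the primitive endoderm markers was 9.41, 9.88, 10.03 and 11.23 (log2). Gata6 and Sox17, which define that lineage, were not well above background in ELA and were at least 9.21-fold and 6.70-fold higher in CHQ, counted against their own ELA signal. Gata4 was at 0.27 in CHQ against ELA, Foxa2 was called lower in CHQ (-1.01) and in AZA (-1.81), while the other Foxa2 probe gave -0.39 and -0.71, and the other Sox17 probe gave 1.38 in CHQ. Trophoblast markers summed to 12.90, 10.68, 12.31 and 13.46, most of it Tfap2c (13.23 in CHQ), with Cdx2 well above background on 1 array, streak and mesoderm markers to between 10.17 and 10.57, neural progenitor markers to 12.90, 13.84, 12.18 and 12.45, and fibroblast markers to 13.81, 14.51, 14.64 and 15.37. In CHQ the fibroblast sum was nearly all Vim (15.25), which also marks other cells, while Col1a2 and Thy1 were called lower in CHQ than in ELA (-2.00 and -2.31). Of the 5 reference transcripts 0 were called, with sums between 20.14 and 20.31, and among them Hprt, incomplete in this line, read between 7.5 and 8.12. The part of these cells in the values of the 10 genes was not tested.

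Finally, the genes with the profile most like that of each member were listed, by Euclidean distance between levels centred over the 4 arrays, among 12433 genes with an ordinary symbol that were well above background on all 4. With 4 arrays and many genes, close profiles are plentiful, and the distance is a description. For Pou5f1 they were Gsta4, Nsun5 and C78704 (distances 0.04 to 0.09), for Sox2 Ino80, Zfp53 and Zup1 (0.05 to 0.08), and for Sall4 Fkbp4, Arl3 and Cflar (0.08 to 0.11). For Utf1 they were Fmc1, Tet3 and Psors1c2 (each 0.05), for Foxd3 Fdxacb1, Pex10 and Dmtf1 (0.04 to 0.06), for Zfp281 Ezr, Entr1 and Med31 (0.01 to 0.03), for Rif1 Zdhhc23 and Cox15 (0.02 and 0.03), and for Trim71 Taf2, Isoc1 and Rab10os (0.03 to 0.05). The nearest profiles of the Lin28 genes lay farther off. Lin28a was nearest to Zfp488, H2bc1 and Camkv (0.20 to 0.23), and Lin28b to Fndc3c1, Syt11 and Zfp618 (0.38 to 0.46).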

How the data were processed

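RNA of 4 groups was hybridised to 1 single-colour array each. Per the file headers, the authors read the scans with Agilent Feature Extraction 10.7.3.1 (their processing notes name version 9.1), and the deposited intensity values of each spot, mean signal and local background, are not normalised between arrays. The authors' own background-corrected and quantile-normalised data, made with limma, were deposited as a table of log2 values. Its scale was checked against the scanner values (r = 0.991 to 0.992 over 55122 probes), its column medians were 6.20 to 6.24, its offset is not given in the sources used here, and it served as an alternative. The deposited flags (well above background, uneven or outlying spot) were used as the scanner software wrote them.

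The mean signal was corrected with normexp on the local background (offset 50) and the 4 arrays were quantile-normalised on the log2 scale with limma 3.58.1 in R 4.3.3. Control and outlier-flagged spots were left out, spots of a probe were averaged, and 559 of 55681 probes had no usable spot on at least 1 array. Between 55.1% and 69.2% of gene spots per array were well above background and the median local background was 59 and 77 on the first slide, 14 and 13 on the second. Of the probes, 26582 matched a RefSeq accession (names from GRCm38.p6). The rest were used under their design names, and no mm9 annotation was used, so exon or UTR positions are not given. Per gene the probe with the highest mean was used. The study's thresholds of size and level were taken over, without its p-value, which 1 array per group cannot give. The level of 7.5 was applied on the scale used here, whose medians (7.20 to 7.23) are higher than those of the deposited table, so that 18947 genes could be called in ELA against ES, and 16542 on the deposited table.

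The 10 genes, the related lists and the markers were chosen with earlier results of these data known. Named are all 10 genes at every probe, at most 3 called genes per list and comparison with the largest size, genes with a stated role beside a member, and the 3 nearest profiles, of which a few are not reported here. The comparison of 5′ with 3′ probes and the promoter motifs were added after values were seen. The call rule was run on simulated data with spot noise alone and shifts larger than the size for a call. This checks the working of the rule and says nothing of variation between cultures or slides.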

Additional observations from a re-analysis of the deposited data

How the results depend on the processing

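Each of the 15 called differences of the 10 genes kept its sign and a size of at least 1 in all 120 values from 8 alternatives (background correction, scaling, the deposited table, mean over probes, flagged spots kept). Of 480 alternative differences, called or not, 86 moved by more than 1 SD of the reading error and 394 by less. Counts and medians moved with 2 scalings and a stricter size. Scaling to the 75th percentile of the processed signal gave medians of -0.57 (AZA against ELA), -0.91 (CHQ against ELA) and -0.95 (CHQ against ES), and 4 genes called in AZA against ES, beside 24.3% of all genes. With this scaling and with spike-ins, 5 genes were called in CHQ against ELA, Pou5f1 being added. Scaling to spike-ins gave medians of -0.71 (ELA against ES), -0.61 (AZA against ELA), -1.03 (CHQ against ELA), -1.40 (AZA against ES) and -1.67 (CHQ against ES), with 3 genes called in ELA against ES (Pou5f1, Sox2, Rif1), 6 in AZA against ES and 10 in CHQ against ES, beside 20.5%, 45.9% and 54.7% of all genes. There the median of all genes also moved, to -0.59, -0.26, -0.39, -0.84 and -1 in the same order. The share of calls of all genes that were higher was 44.3% in ELA against ES, 55.7% in AZA against ELA, 55.5% in CHQ against ELA, 53.5% in CHQ against AZA, 57.6% in AZA against ES and 55.2% in CHQ against ES. With spike-ins it was 7.52%, 45.4%, 32.9%, 41.7%, 10.1% and 8.92% in the same order. With the 75th percentile it was 42.0%, 48.7%, 42.0%, 50.0%, 45.7% and 37.5%. A threshold of 1.5 left 1 gene called in AZA against ES (Lin28b) and 1 in CHQ against ES (Lin28a), beside 8.60% and 10.6% of all genes. With the mean over probes, 2 partner proteins were called in AZA against ES in place of 4. Of all genes in that comparison, 3228 of 17884 were called with the mean over probes, in place of 3743 of 19190. No paired analysis was possible because each group had 1 array. With 1 array per group no array could be left out.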
